A study of Homo sapiens with 18 samples.

Results

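The short arm of human chromosome 5 (5p) runs from the telomere to the centromere gap, which begins at position 46405642 of hg19. The genes described here are 60 listed protein-coding genes of that arm, out of 60252 gene IDs counted in each library. They were chosen by name and position with the difference between ADAR knockdown and control cells already known, so that difference is described here without a test and supports nothing by itself. All 60 symbols were found in the files, and all 60 lie on 5p in GENCODE release 44 placed on hg19. They stand beside 81 other protein-coding genes of the arm, which are used only for comparison.

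RNA came from ZR-75-1, an established breast cancer cell line of luminal type with estrogen receptor. There was a control line, called SHC in the labels, and a line with a knockdown (KD) of ADAR, an enzyme that edits double-stranded RNA by deaminating adenosine to inosine. Cells of each line received no treatment, the vehicle DMSO or 100 nM triptolide. Triptolide is a plant compound that blocks transcription by RNA polymerase II through a subunit of the initiation factor TFIIH. The 6 groups held 3 libraries each, 18 in all, labelled as biological replicates 1 to 3, and RNA was taken after 16 h in medium with reduced serum. The labels name 1 control line and 1 knockdown line, so the knockdown cannot be told apart from any other difference between these lines. DNA copy number was not analysed here.

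The arm holds genes of many unrelated functions. Among them are TERT, the catalytic protein of telomerase, SKP2, a substrate receptor of the ubiquitin ligase that marks the cell cycle inhibitor p27, DROSHA, the nuclease that starts microRNA processing, NIPBL, the loader of cohesin, and the receptors for prolactin (PRLR), leukemia inhibitory factor (LIFR) and oncostatin M (OSMR). Extra copies of 5p are common in carcinomas, and loss of its end causes cri-du-chat syndrome.

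Levels are counts per 1e6 counts in genes after TMM scaling (CPM), and SD is the standard deviation over the 3 libraries of a group. Counts in genes ranged from 26.7e6 to 35.7e6 per library, and the listed genes took 0.384% to 0.558% of them without triptolide and 0.153% to 0.256% with it. The 2 mitochondrial ribosomal RNAs took 20.2% to 37.1% of counts without triptolide and 42.7% to 55.2% with it. ADAR itself stood at 51.0% to 77.5% of control in the 6 pairs without triptolide and at 31.2% to 44.4% in the 3 pairs with it. All 8 luminal markers averaged at least 1 CPM, with a summed level of 2699 to 6750 CPM, against 1 of 4 basal markers (0.276 to 6.47 CPM summed) and 0 of 4 leukocyte markers (0.0284 to 1.40). For stromal cells 1 of 4 markers reached that mean (8.54 to 33.1 CPM summed), and for endothelial cells 1 of the 2 matched markers of 3 did (0.806 to 5.12). None of the matched markers was at 0 in all libraries.

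Of the 60 genes, 51 averaged at least 1 CPM over the 18 libraries. The other 9 averaged less than 1 CPM: the protease gene ADAMTS16, the ubiquitin enzyme gene UBE2QL1, the semaphorin SEMA5A, the adaptor DAB2, BASP1, the F-box gene FBXL7, the cadherin CDH6, ROPN1L and the sodium-proton exchanger SLC9A3. Of these, only CDH6, ROPN1L and SLC9A3 passed the low-count filter of the tests, so 54 genes were tested and 6 were not. The most abundant was PRLR, with 1289 ± 375 CPM in untreated control cells (SD, n = 3), followed by CCT5, a subunit of the chaperonin that folds actin and tubulin, with 412 ± 78.4 CPM (SD, n = 3). TERT was scarce, at 2.83 ± 1.78 CPM (SD, n = 3). These levels are per library and not per length of gene, so they do not rank the genes by molecules.

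Some of these genes start in pairs that point away from each other, and the windows around their starts carry the few promoter sequences to which the results on triptolide return. RefSeq start windows (250 bases before to 50 after the start, GRCh38.p14) were matched for 53 of the 60 genes. In 3 pairs of listed genes the starts lay within 1000 bases of each other in opposite directions, a limit chosen after the values were seen. The starts of RAD1 and BRIX1 lay 207 bases apart and those of DROSHA and C5orf22 208 bases apart, while BRD9 and TRIP13 lay 334 or 83 bases apart depending on the BRD9 start. Shown are the window of BRIX1 (chr5:34915461-34915760, plus strand), of which 294 bases are also in the window of RAD1, that of DROSHA (chr5:31532044-31532343, minus strand), of which 293 are also in that of C5orf22, and that of GOLPH3 (chr5:32174270-32174569, minus strand), whose RNA had the largest fall under triptolide among the listed genes with a call. Capitals mark the letters CCGGAA, the core of sites for ETS factors, in all 3 windows, the letters AAGATGG, as in sites for YY1, in that of BRIX1, and CCAAT in the others, each on either strand.
BRIX1: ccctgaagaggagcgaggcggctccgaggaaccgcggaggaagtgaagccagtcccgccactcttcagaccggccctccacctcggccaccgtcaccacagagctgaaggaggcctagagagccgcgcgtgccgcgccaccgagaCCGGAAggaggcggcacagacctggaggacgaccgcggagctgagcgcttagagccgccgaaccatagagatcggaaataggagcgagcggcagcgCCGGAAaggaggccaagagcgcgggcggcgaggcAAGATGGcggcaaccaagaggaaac
DROSHA: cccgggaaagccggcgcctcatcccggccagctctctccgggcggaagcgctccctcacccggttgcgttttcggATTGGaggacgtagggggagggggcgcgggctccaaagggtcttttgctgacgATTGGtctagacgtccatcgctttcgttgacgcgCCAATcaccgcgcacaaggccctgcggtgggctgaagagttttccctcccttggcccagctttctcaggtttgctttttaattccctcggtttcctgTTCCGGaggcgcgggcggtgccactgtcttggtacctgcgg
GOLPH3: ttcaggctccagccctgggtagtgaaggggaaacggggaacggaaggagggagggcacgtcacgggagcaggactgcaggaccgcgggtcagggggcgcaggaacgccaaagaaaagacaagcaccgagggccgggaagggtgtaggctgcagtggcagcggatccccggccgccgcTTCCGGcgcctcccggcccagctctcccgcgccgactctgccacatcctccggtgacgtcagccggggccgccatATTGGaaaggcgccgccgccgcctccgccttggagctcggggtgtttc
CCGGAA was found for 18 of the 53 matched genes (34.0%), against 17.2% of all 35116 RefSeq windows, and AAGATGG for 4 (7.55%) against 5.84%. The letters GGGCGG, the GC box, were found for 46 genes (86.8%) against 45.0%, CCAAT for 23 (43.4%) against 34.6%, and TATAAA for 3 (5.66%) against 11.5%. Shares of the list count genes, while those of RefSeq count windows. BRD9 had starts at different positions, so a gene can have several windows. The shares are therefore not like for like, and no difference between them was tested. All were searched on both strands, and CCGGAA and GGGCGG can share letters within GC-rich stretches. These matches describe letters and not bound sites.

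The median RNA level of the listed genes was lower in knockdown than in control cells in all 3 treatments and in each stretch of the arm that held listed genes of at least 1 CPM. Each knockdown library was set against the control library of the same replicate number as a log2 ratio of CPM + 0.5. The median ratio over the 51 genes was -0.29, -0.34 and -0.29 in the 3 untreated pairs, which averages to -0.31 (SD 0.0305, n = 3) or 80.8% of control. In DMSO the medians were -0.22, -0.22 and -0.22 (mean 85.9% of control), and in triptolide -0.23, -0.41 and -0.28 (mean -0.31, SD 0.0893, n = 3; 80.8% of control). All 9 medians were below 0, and over all genes of at least 1 CPM the means of the pair medians were -0.02, 0.01 and -0.02. As these are bulk samples, fewer cells with a given RNA and less of it per cell cannot be told apart.

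Counted gene by gene, 34 of the 51 were lower in 3 of 3 untreated pairs, 36 in DMSO and 34 in triptolide, where the share over all genes of at least 1 CPM was 15.4%, 17.4% and 18.9%. Higher in 3 of 3 pairs were 1, 2 and 2 of the 51, against 11.2%, 20.7% and 16.2% of all genes. In all 9 pairs together 18 genes were lower and 0 were higher, where the background was 2.37% and 2.33%. The mean of the 9 pairs lay below 0 for 47 of the 51 (92.2%), against 54.1% of all genes. Nothing is read from these counts, because this difference chose the genes. The map of the log2 ratio in each pair shows how evenly the difference was spread over the list and which entries stood out.

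**Figure D1:**
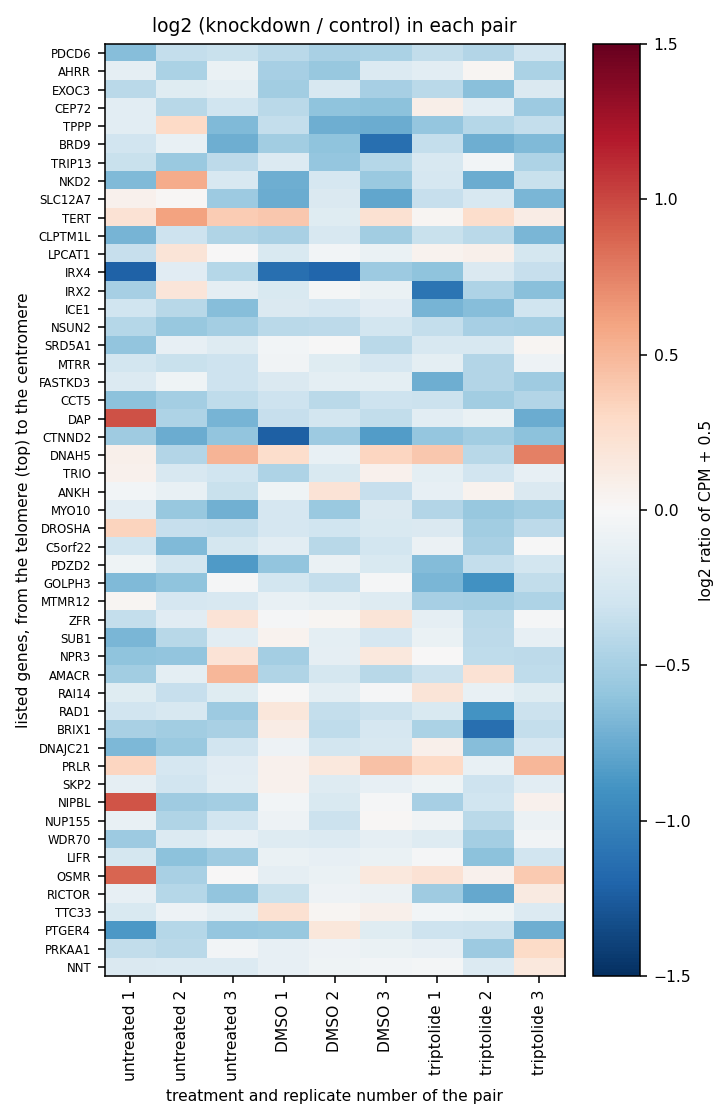
Log2 ratio of knockdown over control (CPM + 0.5, colour scale) for the 51 listed genes of at least 1 CPM (rows, from the telomere to the centromere) in each of the 9 library pairs (columns, by treatment and replicate number). Most cells are blue, meaning lower in the knockdown, and the red cells gather in the rows of TERT, DNAH5, PRLR and OSMR and in untreated pair 1 of DAP, NIPBL and OSMR.

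Among genes of the cell cycle, telomere and chromosomes, the mean of 9 pairs was below 0 for 6 of 7, and 1 was lower in all 9 pairs. That gene was TRIP13, an ATPase of the spindle checkpoint, with 61.0, 49.1 and 90.1 CPM in untreated control cells and 48.4, 33.4 and 68.6 CPM in untreated knockdown cells. Every knockdown library of TRIP13 lay under its own control, but the groups overlapped, and replicate 3 was the highest in both. Its median log2 ratio over the 9 pairs was -0.39, against -0.16 for SKP2 and -0.22 for NIPBL.

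TERT was the exception of this group. Its level was 4.83, 1.41 and 2.24 CPM in untreated control cells and 5.67, 2.39 and 3.08 CPM in untreated knockdown cells. It was higher in the knockdown in 8 of 9 pairs, with a median log2 ratio of 0.23, and the groups overlapped. NIPBL had 48.2, 104 and 80.1 CPM in untreated control cells and 93.5, 71.9 and 56.0 CPM in untreated knockdown cells. Knockdown replicate 1 was thus the high library of its group, and its pair had a log2 ratio of 0.95 where the other untreated pairs had -0.53 and -0.51.

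The 13 genes of RNA, transcription and protein making or folding were all lower on average, 6 of them in all 9 pairs. BRD9, a bromodomain protein of a SWI/SNF chromatin remodelling complex, had the lowest median of all 51 genes, -0.61 or 65.7% of control. It stood at 36.4, 19.2 and 37.5 CPM in untreated control cells and at 29.7, 17.7 and 22.3 CPM in untreated knockdown cells, which overlap because control replicate 2 was low. NSUN2, which places 5-methylcytosine on transfer RNA and other RNA, had 110, 80.5 and 151 CPM in untreated control cells and 81.7, 54.3 and 107 CPM in untreated knockdown cells. Its libraries also overlapped between groups, while its 9 log2 ratios kept between -0.57 and -0.28 with a median of -0.43.

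CCT5 had 376, 359 and 502 CPM in untreated control cells and 246, 253 and 385 CPM in untreated knockdown cells, and was lower in all 9 pairs although the groups overlapped. IRX4, a homeobox factor present at low levels, had a median of -0.54, and BRIX1, which is needed for making the large ribosomal subunit, one of -0.47, with 8 of 9 pairs lower. DROSHA had a median of -0.30, and its untreated pair 1 was the single pair above 0 (0.33). ZFR, a zinc finger protein that binds RNA, had a median near 0 (-0.02).

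Of 11 receptors, ligands and signalling genes above the minimum level, 9 were lower on average and 3 in all 9 pairs. Those 3 were the receptor LIFR, the calcium-binding protein PDCD6 and CLPTM1L, a membrane protein whose median was -0.46. PDCD6 stood at 63.4, 63.6 and 61.8 CPM in untreated control cells and at 40.7, 49.7 and 49.1 CPM in untreated knockdown cells, so that the groups did not overlap. PTGER4, a receptor for prostaglandin E2, had a median of -0.42 (8 of 9 pairs lower) at a mean of 1.31 CPM over all libraries, and RICTOR, a subunit that defines mTOR complex 2, one of -0.33.

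The cytokine receptors did not follow as a group. PRLR had 893, 1639 and 1335 CPM in untreated control cells and 1116, 1376 and 1191 CPM in untreated knockdown cells. Its libraries overlapped and its median ratio was 0.16, and that of OSMR was 0.06. DAP, a protein linked to cell death and autophagy, had 51.2 CPM in untreated knockdown replicate 1 and 16.7 and 21.5 CPM in the others, against 26.2, 23.3 and 35.2 CPM in the control. That library alone was above its control, with a log2 ratio of 0.95, and the other 8 pairs were below 0.

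Genes of the cytoskeleton, adhesion and membrane traffic were lower on average in 9 of 10 cases, 5 of them in all 9 pairs. CTNND2, delta-catenin, which binds cadherins at cell junctions, had 25.3, 29.4 and 29.4 CPM in untreated control cells and 17.4, 17.3 and 19.3 CPM in untreated knockdown cells. Its groups were separate there and in DMSO (24.6, 27.1 and 29.9 against 10.2, 18.4 and 16.6 CPM) but overlapped in triptolide (20.4, 30.7 and 29.3 against 13.5, 21.2 and 18.9 CPM). Its median over 9 pairs was -0.60, or 66.2% of control.

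MYO10, a myosin of filopodia, had a median of -0.52, TPPP, a microtubule-binding protein, one of -0.43, EXOC3, a subunit of the exocyst, one of -0.41, and GOLPH3, a Golgi protein that binds phosphatidylinositol 4-phosphate, one of -0.37. DNAH5, an axonemal dynein chain with a mean of 1.70 CPM over all libraries, had the highest median of the list, 0.27, with 6 of 9 pairs higher. All 7 genes of transport and metabolism above the minimum level were lower on average but 1, MTRR, the reductase that keeps methionine synthase active, was so in all 9 pairs. LPCAT1, an enzyme of lung surfactant and membrane lipids, had a median of -0.04.

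The medians were below 0 on both sides of a stretch of the arm with few expressed genes, while most of those beyond the centromere gap lay nearer to 0. In windows of 10 Mb from the telomere, the median of the mean log2 ratio was -0.36 for the 19 listed genes below 10 Mb and -0.25 for 7 genes from 10 to 20 Mb. It was -0.25 for 21 genes from 30 to 40 Mb and -0.13 for 4 genes from 40 Mb on, and no listed gene of at least 1 CPM lay between 20 and 30 Mb. The 1 other 5p gene of that level there, the cadherin CDH10, had a mean of -0.06, with 6 of 9 pairs lower. By treatment, the window medians of the listed genes, in the same order, were -0.29, -0.16, -0.29 and -0.24 in untreated pairs. In DMSO they were -0.41, -0.33, -0.16 and -0.09, and in triptolide -0.42, -0.33, -0.25 and -0.12. The difference between treatments along the arm was not tested. The long arm, 5q, began with a median of 0.01 over 2 genes and of -0.05 over the 22 genes from 50 to 60 Mb. Its lowest windows had -0.13 over the 8 genes from 180 Mb on and -0.09 over the 10 genes from 160 to 170 Mb. With only 4 genes, the last window of listed genes is thin, and the 12 other genes of 5p in the same window had a median of -0.28.

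**Figure D2:**
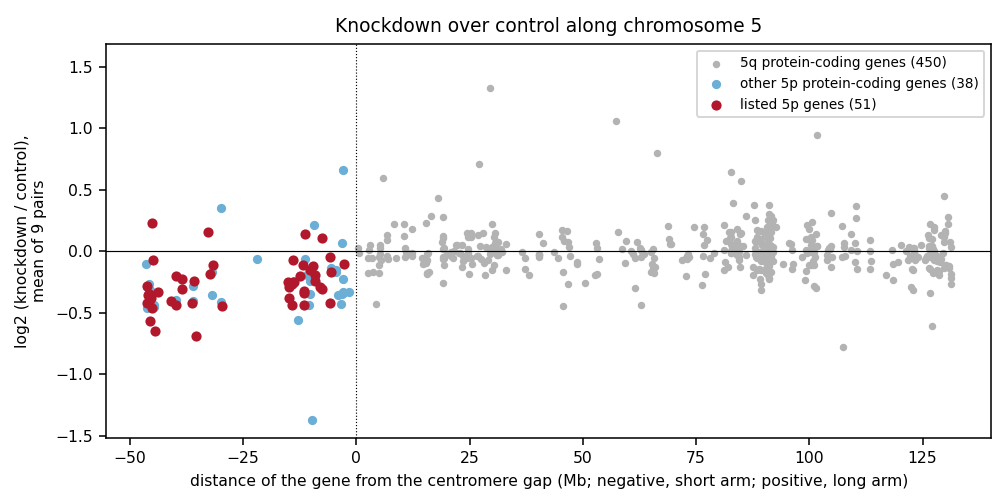
Mean log2 ratio of knockdown over control over 9 pairs (vertical axis) against the distance of each gene from the centromere gap (Mb, negative on the short arm) for 51 listed 5p genes (red), 38 other 5p genes (blue) and 450 genes of 5q (grey), all protein-coding and of at least 1 CPM. Red and blue points lie mostly below 0 on the short arm, and the grey points of the long arm are centred near 0.

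Genes of the arm that are not on the list had similar values. Of the 38 with at least 1 CPM, 18 were lower in all 9 pairs and 1 was higher, with a median log2 ratio of -0.33. Their extremes were SLC1A3, a glutamate transporter, at -1.37, and the chemokine CCL28 at 0.66, the gene that was higher in all 9 pairs. On 5q, 8 of 450 genes were lower and 14 higher in all 9 pairs, with a median of -0.01. Over all 89 genes of 5p the median was -0.31, which placed the arm second from the lowest of 41 arms with at least 20 genes, overall and in each treatment. The lowest was 18p (-0.44) and the next after 5p was 19q (-0.04). No test was made of these differences, since they are the measure by which the list was chosen.

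**Figure D3:**
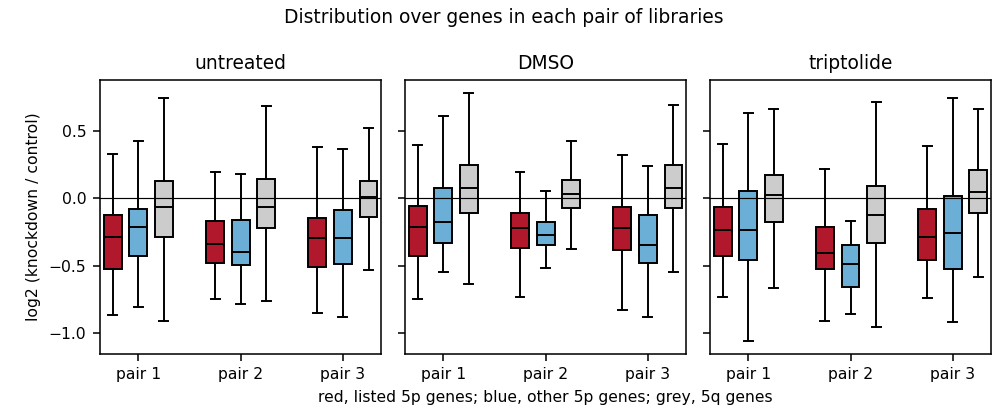
Log2 ratio of knockdown over control in each of the 9 library pairs (3 panels by treatment) for 51 listed 5p genes (red), 38 other 5p genes (blue) and 450 genes of 5q (grey); boxes span the quartiles with the median as a line, and whiskers reach the farthest gene within 1.5 times the box length. The red and blue medians lie below the grey median in every pair.

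The summed level of the listed genes was nearer to control than the median gene. In untreated cells it came to 93.5%, 78.9% and 83.6% of control in the 3 pairs, in DMSO to 90.9%, 91.5% and 101%, and in triptolide to 90.3%, 77.2% and 92.4%. PRLR, the most abundant of them, weighs most in this sum. It was not lower on average over the 9 pairs, though its mean log2 ratio in untreated pairs was -0.03.

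Triptolide changed the scaled level of many of these genes in both lines, more of them downward than upward. CPM is relative to the other RNA of a library, so a rise or fall here is one of share after TMM scaling. Whether the amount of an RNA per cell changed cannot be read from it. The comparison with DMSO did not choose the list and was tested with edgeR's quasi-likelihood test with Benjamini-Hochberg adjustment over 21285 genes, a call being an adjusted p under 0.05. In control cells 21 of the 54 tested genes were called (38.9%), 4 higher and 17 lower, where 30.8% of all tested genes were called, 14.9% higher and 16% lower. In knockdown cells 25 were called (46.3%), 6 higher and 19 lower, where the background was 35.7%, with 16.7% higher and 18.9% lower. The median log2 change of the tested genes was -0.39 in control and -0.34 in knockdown cells, against 0.03 and 0.04 over all genes. The other tested genes of 5p had 12 higher and 8 lower of 48 in control cells and 11 and 12 in knockdown cells, with medians of 0.25 and 0.03. The mitochondrial ribosomal share given above moves with this comparison. So does the summed level of the 4 leukocyte markers, none of which averaged 1 CPM, with 0.0322 to 0.143 CPM in DMSO and 0.58 to 0.846 CPM in triptolide in control cells and 0.0284 to 0.303 against 0.679 to 1.40 CPM in knockdown cells. The 2 matched endothelial markers went from 1.06 to 2.84 CPM summed to 1.93 to 5.12 CPM in control cells, which overlap, and from 0.823 to 1.99 CPM to 2.39 to 3.82 CPM in knockdown cells, which do not. Stromal and basal sums overlapped between the treatments in both lines. The part of these shares and markers in the results was not tested.

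Both lines were called in the same direction for 20 genes, 4 higher and 16 lower, and 28 genes were called in neither. The 3 treated libraries lay above all DMSO libraries for 10 genes and below them for 22 in control cells, where 20.9% and 22.2% of all genes did, and for 11 and 20 genes in knockdown cells, beside 24% and 24.7%. With the replicate number as a block in the same test, the counts were 37 of 54 (12 higher, 25 lower) in control cells, beside 52.1% of all genes (26.1% higher, 26% lower), and 35 (12 higher, 23 lower) in knockdown cells, beside 57.1% (29.1% higher, 28.1% lower). The block added 16 calls in control and 10 in knockdown cells and ended 0 in each.

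**Figure D4:**
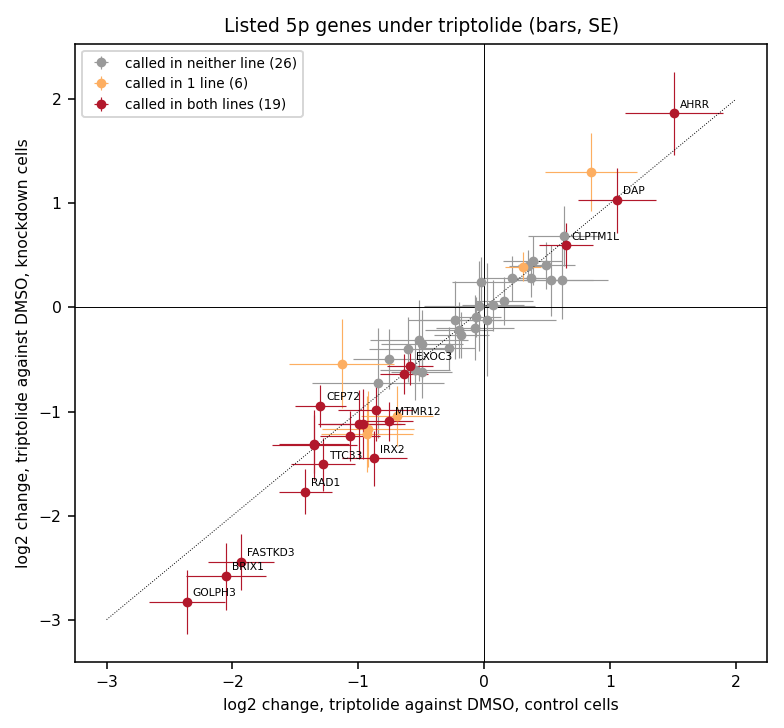
Log2 change, triptolide against DMSO, in control cells (horizontal) and knockdown cells (vertical) for the 51 listed genes of at least 1 CPM, with bars for the standard error and a dotted line where both changes are equal; red points were called in both lines (19), orange points in 1 line (6) and grey points in neither (26). GOLPH3, BRIX1, FASTKD3 and RAD1 lie at the low end and AHRR and DAP at the high end.

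The genes that fell furthest were GOLPH3, BRIX1, FASTKD3 and RAD1. GOLPH3 went from 69.3, 92.6 and 76.8 CPM in DMSO to 9.73, 21.1 and 15.6 CPM in triptolide in control cells, and from 56.9, 72.3 and 75.6 to 5.85, 11 and 12 CPM in knockdown cells. No treated library came near the DMSO libraries in either line. Its log2 change was -2.36 ± 0.30 (SE; 5.14-fold lower, edgeR's quasi-likelihood test, adjusted p = 3.26e-05) in control cells and -2.83 ± 0.31 (7.10-fold lower, adjusted p = 5.41e-06) in knockdown cells.

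BRIX1 went from 49.1, 57.4 and 78.9 to 9.69, 20.7 and 14.4 CPM in control cells and from 53.0, 44.1 and 66.0 to 6.84, 9.20 and 11.1 CPM in knockdown cells. RAD1, a subunit of the 9-1-1 clamp that signals DNA damage, went from 26.9, 30.9 and 34.9 to 8.97, 14.6 and 11.1 CPM in control cells and from 30.2, 23.9 and 27.7 to 7.56, 7.57 and 8.82 CPM in knockdown cells. For both genes, which start 207 bases apart in the window shown for BRIX1, the treated and DMSO libraries did not overlap in either line. The log2 change of BRIX1 was -2.05 ± 0.32 in control and -2.58 ± 0.32 in knockdown cells (edgeR, adjusted p = 0.000151 and 1.83e-05), and that of RAD1 -1.42 ± 0.21 and -1.77 ± 0.22 (adjusted p = 0.000122 and 1.38e-05). The annotated spans of these genes overlap by 3313 bases on opposite strands. Whether counting used strand is not given in the sources used here, so reads of such overlapping genes cannot be told apart.

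FASTKD3, a mitochondrial protein of RNA metabolism, went from 9.01, 8.46 and 11.3 to 2.20, 2.71 and 2.65 CPM in control cells and from 7.72, 7.61 and 10.2 to 1.12, 1.87 and 1.68 CPM in knockdown cells. The groups were far apart in both lines, with log2 changes of -1.93 ± 0.26 and -2.44 ± 0.27 (edgeR, adjusted p = 5.39e-05 and 5.89e-06). Its span of 9879 bases lies within that of MTRR on the opposite strand, whose own log2 change was 0.07 in control and 0.02 in knockdown cells without a call.

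The pair of DROSHA and C5orf22, which also shares a start window, had log2 changes of opposite sign with all libraries. The difference between these genes was not tested. DROSHA had 82.8, 93.4 and 105 CPM in DMSO and 48.2, 61.2 and 89.8 CPM in triptolide in control cells, and 69.7, 75.8 and 89.3 against 41.5, 42.4 and 68.5 CPM in knockdown cells. Its groups overlapped in control cells and were separate in knockdown cells, and the log2 changes of -0.50 ± 0.24 and -0.62 ± 0.24 were not called (edgeR, adjusted p = 0.133 and 0.0546). With the replicate block both were called lower (adjusted p = 0.00806 and 0.00156). C5orf22, a gene of little known function, had 39.9, 47.1 and 47.3 CPM in DMSO and 39.4, 71.4 and 45.7 CPM in triptolide in control cells. In knockdown cells it had 35.7, 35.2 and 38.9 against 37.1, 50.7 and 45.5 CPM, and the groups overlapped in both lines. Its log2 changes of 0.22 ± 0.22 and 0.28 ± 0.22 were called neither without the block (edgeR, adjusted p = 0.478 and 0.332) nor with it (0.304 and 0.173). Leaving out 1 library gave -0.08 to 0.38 in control and 0.17 to 0.38 in knockdown cells, so its sign in control cells was not stable. In the pair of BRD9 and TRIP13, both genes had changes below 0 without a call (edgeR), of -0.60 ± 0.31 and -0.40 ± 0.31 for BRD9 and of -0.23 ± 0.37 and -0.12 ± 0.38 for TRIP13.

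**Figure D5:**
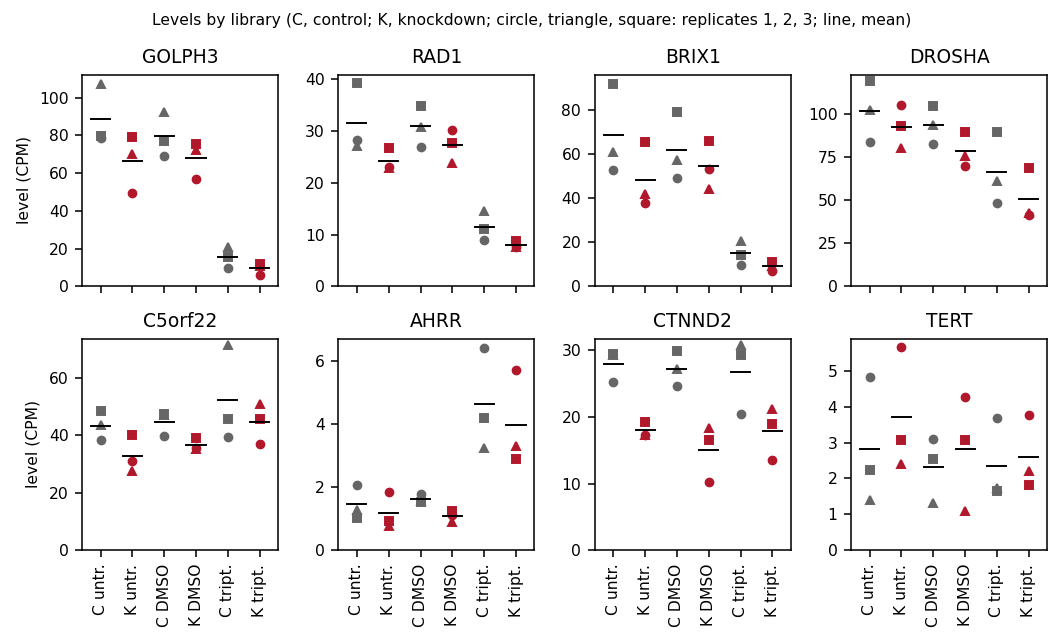
Level (CPM, linear axes from 0) of 8 listed genes in each of the 18 libraries by group (C, control; K, knockdown; untr., untreated; tript., triptolide), with marker shapes for replicates 1 to 3 and a line at the mean. GOLPH3, RAD1 and BRIX1 are low in both triptolide groups, AHRR is high there, and CTNND2 and TERT show no shift with triptolide larger than the spread of their libraries.

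Among receptors and signalling genes, the fall of PRLR had the largest size in CPM. It went from 859, 1102 and 1186 to 264, 419 and 552 CPM in control cells and from 895, 1228 and 1614 to 324, 387 and 781 CPM in knockdown cells. The groups did not overlap in either line, and the log2 changes were -1.35 ± 0.34 and -1.32 ± 0.34 (edgeR, adjusted p = 0.0056 and 0.00537). PRKAA1, a catalytic subunit of the energy sensor AMPK, fell to a like degree (-1.35 ± 0.28 and -1.31 ± 0.28, edgeR, adjusted p = 0.00156 and 0.00159).

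MYO10 (-1.07 ± 0.24 and -1.24 ± 0.24), TTC33, a protein with tetratricopeptide repeats (-1.28 ± 0.26 and -1.51 ± 0.26), CEP72, a centrosomal protein (-1.30 ± 0.20 and -0.95 ± 0.20), and MTMR12, a phosphatase-like adaptor (-0.75 ± 0.19 and -1.09 ± 0.19), were called lower in control and knockdown cells by the same test. TTC33 and CEP72 each overlap another listed gene on the opposite strand, PTGER4 and TPPP. Calls held in both lines under every alternative run of the tests for 11 of the 19 genes named by the rule. Those were GOLPH3, BRIX1, FASTKD3, RAD1, PRLR, PRKAA1, TTC33, MYO10, CEP72, MTMR12 and AHRR. These runs did not include one without TMM scaling.

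Of the genes called higher in both lines, AHRR, the repressor of the aryl hydrocarbon receptor, had the largest change among those of at least 1 CPM. It went from 1.79, 1.56 and 1.51 to 6.43, 3.24 and 4.20 CPM in control cells and from 1.13, 0.883 and 1.25 to 5.71, 3.32 and 2.89 CPM in knockdown cells. Treated libraries were above all DMSO libraries in both lines, with log2 changes of 1.51 ± 0.39 and 1.86 ± 0.40 (edgeR, adjusted p = 0.00732 and 0.00163). CDH6 had 1 count in the 3 DMSO libraries of control cells and 38 counts in triptolide, and 0 against 39 counts in knockdown cells. It was called higher in both, and no fold is given because the DMSO counts are so few.

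DAP rose from 23.5, 23.8 and 26.9 to 43.4, 44 and 67.0 CPM in control cells and from 18.4, 19.6 and 20.7 to 38.7, 41.2 and 39.9 CPM in knockdown cells. No libraries overlapped, and the log2 changes were 1.06 ± 0.31 and 1.03 ± 0.31 (edgeR, adjusted p = 0.0157 and 0.0156). In control cells the call was lost without DMSO replicate 1 (adjusted p = 0.0528) or triptolide replicate 3 (0.0828), and in knockdown cells without DMSO replicate 1 (0.0538). CLPTM1L rose by 0.65 ± 0.22 and 0.60 ± 0.22 on the log2 scale (edgeR, adjusted p = 0.03 and 0.0396). Its call was lost in control cells without DMSO replicate 1 (0.0615) or 2 (0.132) or triptolide replicate 1 (0.0731) or 3 (0.113), and in knockdown cells without any 1 of the 6 libraries compared (0.0538 to 0.139).

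NIPBL and NPR3, a clearance receptor of natriuretic peptides, were called lower in both lines, with calls less stable when a library was left out. The runs that left out a library, for these and all other genes, were made without the replicate block. NIPBL fell by 0.99 ± 0.33 and 1.12 ± 0.33 on the log2 scale (edgeR, adjusted p = 0.0294 and 0.0136), and its call was lost in control cells without triptolide replicate 1 (0.111) or 3 (0.0887) or DMSO replicate 2 (0.113) or 3 (0.0609), and in knockdown cells without triptolide replicate 1 (0.0664). NPR3 fell by 0.96 ± 0.33 and 1.12 ± 0.34 (edgeR, adjusted p = 0.0369 and 0.015). Its call was lost in control cells without DMSO replicate 1 (0.0732) or 3 (0.109) or triptolide replicate 1 (0.125) or 2 (0.107), and in knockdown cells without triptolide replicate 2 (0.0651) or DMSO replicate 3 (0.0937).

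IRX2, a homeobox factor (-0.87 and -1.45), DNAJC21, a cochaperone of ribosome assembly (-0.86 and -0.98), TRIO, a guanine nucleotide exchange factor (-0.64 and -0.64), and EXOC3 (-0.59 and -0.56) were also called lower in both. IRX2 lost its call in control cells without triptolide replicate 1 (adjusted p = 0.0724, edgeR). DNAJC21 lost it in control cells without triptolide replicate 1 (0.151) or DMSO replicate 2 (0.094) or 3 (0.0989), and in knockdown cells without triptolide replicate 1 (0.0718). TRIO lost it in control cells without triptolide replicate 1 (0.0799) or DMSO replicate 3 (0.0576), and in knockdown cells without triptolide replicate 1 (0.0679) or DMSO replicate 3 (0.1). EXOC3, which overlaps SLC9A3 on the other strand, lost it in control cells without DMSO replicate 1 (0.0611) or 3 (0.065) or triptolide replicate 2 (0.0763), and in knockdown cells without DMSO replicate 2 (0.0658) or triptolide replicate 2 (0.121).

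Without the replicate block, a call in 1 line only was made for IRX4 in control cells (-1.13, adjusted p = 0.0486, edgeR) and for 5 genes in knockdown cells. Those were AMACR, a racemase of branched fatty acid breakdown (1.30), PDCD6 (0.39), ICE1, a subunit of the little elongation complex (-1.05), LIFR (-1.17) and RICTOR (-1.22). The call of IRX4 was lost without any 1 of the 6 libraries compared (adjusted p of 0.067 to 0.135, edgeR), and so was that of PDCD6 (0.0717 to 0.13). AMACR lost its call without knockdown DMSO replicate 1 (0.0506) or triptolide replicate 2 (0.07), LIFR without triptolide replicate 1 (0.0718) or DMSO replicate 2 (0.094), and RICTOR without the same libraries (0.0723 and 0.0648). With the replicate block the 5 genes were called in control cells as well, in the same direction (edgeR, adjusted p = 0.0386 for AMACR, 0.0276 for PDCD6, 0.000782 for ICE1, 3.26e-05 for LIFR and 2.28e-05 for RICTOR), and IRX4 was not called in knockdown cells (0.258). The interaction of line and treatment tests whether the lines differ, and it called none of them.

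Settings other than the libraries also ended some calls by edgeR. With DESeq2 size factors, NPR3 (adjusted p = 0.0517), DNAJC21 (0.0547) and IRX4 (0.0598) were not called in control cells. With only the 6 libraries compared, CLPTM1L (0.0571), DNAJC21 (0.0638), TRIO (0.0566) and EXOC3 (0.0789) were not called in control cells, nor TRIO (0.0515), EXOC3 (0.0805) and PDCD6 (0.102) in knockdown cells. Without the low-count filter, CLPTM1L (0.166) and EXOC3 (0.0541) were not called in control cells, nor CLPTM1L (0.173), EXOC3 (0.0762), AMACR (0.0926) and PDCD6 (0.477) in knockdown cells.

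The remaining genes chosen by name were not called in either line. The log2 change of TERT was 0.02 ± 0.55 in control and -0.12 ± 0.54 in knockdown cells, a standard error larger than the change itself, and its replicates differed widely (3.11, 1.31 and 2.55 CPM in control DMSO). SKP2 (0.38 ± 0.18 and 0.28 ± 0.18), ZFR (0.53 ± 0.34 and 0.26 ± 0.34) and NSUN2 (-0.07 ± 0.31 and -0.19 ± 0.31) were not called either. With the replicate block SKP2 was called higher in both lines (edgeR, adjusted p = 0.00626 and 0.0312) and ZFR in control cells (0.00594).

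The other calls added by the block were on genes not named by the rule or named for the knockdown, and were chosen for mention after their values were seen. Higher in control and knockdown cells were the lipid enzyme LPCAT1 (edgeR with the block, adjusted p = 0.0208 and 0.00628), SRD5A1, a steroid 5-alpha-reductase (0.00143 and 0.00127), the transcription coactivator SUB1 (0.0034 and 0.0129) and the mitochondrial transhydrogenase NNT (0.0172 and 0.00656). Lower in both were BRD9 (0.00698 and 0.0491), the nuclear pore protein NUP155 (0.0012 and 0.000494) and OSMR (0.00366 and 0.0395). SLC12A7, a potassium-chloride cotransporter, was lower in control cells (0.0231), and SLC9A3 was higher in knockdown cells (0.0336).

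The calls under triptolide by role can be read against the share of all tested genes called higher and lower, 14.9% and 16% in control and 16.7% and 18.9% in knockdown cells. Of 13 genes of RNA, transcription and protein making or folding, 1 was higher and 5 lower in each line, and of 7 cell cycle, telomere and chromosome genes 0 were higher and 3 lower in each. Of the 12 tested genes of the cytoskeleton, adhesion and membrane traffic, 1 was higher and 5 lower in each line. The 11 tested receptors, ligands and signalling genes had 2 higher and 3 lower in control cells and 3 and 5 in knockdown cells. Of the 8 genes of transport and metabolism, 0 were called in control cells and 1, AMACR, was higher in knockdown cells. Of the 3 tested genes with other roles, 1, TTC33, was lower in each line and 0 were higher. These counts describe the list, and no difference between the roles was tested.

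Whether triptolide acted differently in the lines was asked with an interaction term, which is built from the knockdown differences that chose the list. No listed gene was called (0 of 54, beside 0% of all genes). By edgeR without the replicate block, 0 had an unadjusted p under 0.05, against 203 of the 21285 genes tested. That is less than the share of 0.05 expected where nothing differs, and with the block the count over all genes was 845. The fit without the block keeps the differences between replicate numbers in its spread. Its few small p-values therefore do not show that the lines responded alike. DESeq2's Wald test called 1 gene of all and 0 of the list, and with the replicate block 2 listed genes, IRX2 and BRIX1, had an unadjusted p under 0.05 and none was called (beside 0.0047% of all genes, 0.0047% higher).

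DMSO against untreated cells gave no call in either line by edgeR (0 of 54, beside 0% of all genes in both). In control cells 0 listed genes and 121 of all had an unadjusted p under 0.05 by edgeR, and in knockdown cells 0 and 208. With the replicate block these counts were 0 and 274 in control and 2 and 747 in knockdown cells, with no call. The fit without the block keeps the differences between replicate numbers in its spread. Its few small p-values therefore do not show that DMSO had no effect. DESeq2 called 0 genes in either line. Without the low-count filter, edgeR called 25 genes of all lower in knockdown cells and 0 listed genes. Median log2 changes of the listed genes were -0.05 in control and 0.02 in knockdown cells.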

How the data were processed

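The deposited values are raw counts per gene ID, 1 library per file. Per the submitters' processing notes, STAR 2.4.2a, HTSeq 0.6.1, DESeq2 1.4.5, R 3.1 and hg19 were used by the authors; the kit was a stranded total RNA kit per the labels' protocols, and whether HTSeq counted by strand is not given in the sources used here. Of 60252 gene IDs, 58862 (97.7%) were matched to GENCODE release 44 placed on hg19. Library sizes and tests did not use the 5 tallies of reads in no gene (24.9% to 35.4% of reads tallied).

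TMM-scaled counts were tested by edgeR 4.0.16 in R 4.3.3 (quasi-likelihood, two-sided, low-count filter by group, 6 groups in 1 fit of 18 libraries, 12 residual degrees of freedom, Benjamini-Hochberg over 21285 genes). The standard error (SE) is the log2 change over the root of its F statistic. The fit was also run on simulated counts with no pairing of replicates, so that run does not cover libraries paired by number, as these are. No replicates were copies: a chi-square over its degrees of freedom came to at least 53.4. The labels call replicates biological but do not say how they were grown, so p-values measure the spread between these samples.

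Libraries of different groups with equal replicate number deviated together (r of 0.399 to 0.811 across genes in 45 pairs, against -0.632 to -0.01 in 90 pairs of unequal number), and 18 of 18 matched their own number best, so the numbers mark pairs. A block by number (10 residual degrees of freedom) is given where it changes a call. The members, role groups and lists were chosen with earlier results of these data known. Genes named under triptolide were those called alike in both lines with groups that do not overlap and at least 1 CPM; under the knockdown, the 10 lowest and 6 highest medians of 9 pairs; and 10 genes were always named. Alternatives for the tests were the block, DESeq2 1.42.0 and its size factors, no low-count filter, only the libraries compared, and leaving out each library. Runs that left out a library had no block. For the knockdown ratios they were DESeq2 size factors, no TMM, other minimum levels, pseudocounts and windows, and leaving out each pair.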

Additional observations from a re-analysis of the deposited data

Results flagged for a closer look

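TTC33 stood out because its 3 pairs moved one way in some treatments and the opposite way in another. Its mean log2 ratio of knockdown over control was -0.15 in untreated pairs and -0.10 in triptolide, with all 3 pairs below 0 in each. In DMSO it was 0.11, with all 3 pairs above 0. Several pairs lay near 0, with 0.23, 0.03 and 0.08 in DMSO and -0.04, -0.06 and -0.20 in triptolide. The gene was picked from 51 by these signs, and the share of all genes with the same pattern was not counted. Of all genes, 15.4% were lower in 3 of 3 untreated pairs and 20.7% higher in 3 of 3 DMSO pairs. The difference between untreated and DMSO was not tested. The difference between triptolide and DMSO was part of the interaction fit and was not called by edgeR (adjusted p = 1), and this contrast also chose the gene.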

How the results depend on the processing

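With the replicate block, which uses the pairing by number, listed genes called under triptolide in control cells went from 21 to 37 and other 5p genes from 20 to 39; in knockdown cells, the interaction and DMSO against untreated, counts stayed within 1.5 times. Leaving out 1 library gave 14 to 21 listed genes in control and 18 to 26 in knockdown cells (other 5p genes 14 to 20 and 17 to 21), and 0 for the interaction and DMSO. The median knockdown ratio in untreated pairs was -0.34 without TMM, -0.25 with no minimum level and -0.28 with a pseudocount of 2 CPM. In DMSO it was -0.21 with DESeq2 size factors, -0.11 without TMM, -0.21 at a minimum of 10 CPM, -0.18 with no minimum and -0.20 with that pseudocount. Without TMM the median of all genes in DMSO moved to 0.12, and the listed genes lay 0.23 below it, as with TMM (members minus all genes, -0.23 in both). Leaving out 1 pair gave -0.32 to -0.29 in untreated cells, -0.22 in DMSO and -0.35 to -0.26 in triptolide. No listed result with a call changed direction under any alternative run for it. The tests under triptolide were not run without TMM. Counts were too few in 6 listed genes for a test.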
